A study of Mus musculus with 28 samples.

Results

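The data are RNA-seq read counts per gene from the tibialis anterior, a leg muscle, of 28 mice. The genes described are 44 autophagy and lysosome genes, chosen by name and matched by symbol to the Ensembl identifiers of both count tables. All 44 were present in both tables and all 44 passed the filter on low counts in each, among 15439 genes tested in the Dnm2 cohort and 14841 in the Bin1 cohort.

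The study set mouse models of centronuclear myopathy, a muscle disease with misplaced nuclei, against WT mice, with or without tamoxifen, a selective estrogen receptor modulator given here in the diet. The Dnm2 cohort held WT mice and mice heterozygous for the S619L knock-in allele of Dnm2, which encodes the membrane-cutting GTPase dynamin 2 (Dnm2 S619L/+), and each genotype received placebo or tamoxifen. The Bin1 cohort held WT mice on placebo, and mice lacking Bin1, which encodes the membrane-curving protein amphiphysin 2 (Bin1 mck-/-), on placebo or on tamoxifen. Each of the 7 groups had 4 mice, which were 8 weeks old and of the C57BL/6N background. The Dnm2 allele is a point change carried by every cell, so the level of Dnm2 RNA does not check these labels. The Bin1 deletion is driven by mck, the muscle creatine kinase promoter, a promoter of muscle fibers, so other cells of the muscle are not targeted. Bin1 RNA lay between 36.1 and 62.1 CPM (reads of a gene per 1000000 reads of its library) in the 8 Bin1 mck-/- mice and between 521 and 556 CPM in the WT mice of that cohort. The Bin1 cohort has no WT tamoxifen group here. Libraries of the cohorts were made with different RNA inputs (300 ng and 350 ng) and fragmentation times (2 and 8 minutes), so cohort and protocol cannot be told apart, and groups were compared within a cohort. Values per mouse are listed in the order of mice 1 to 4, or 5 to 8 for the WT mice of the Bin1 cohort, and ± beside a log2 fold change is its SE.

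Autophagy delivers cytoplasm, organelles and aggregates to lysosomes. The ULK kinase complex starts it, the class III PI3-kinase complex and lipid transfer proteins grow a cup-shaped membrane, and a conjugation system attaches ATG8 proteins to that membrane, where cargo receptors bind them. The closed autophagosome fuses with late endosomes and lysosomes, whose cathepsins and glycosidases degrade the content. TFEB and TFE3 are transcription factors that bind an E-box element, called CLEAR, near many lysosomal genes, and FoxO factors drive autophagy genes in wasting muscle. In skeletal muscle the pathway clears damaged mitochondria and proteins, and loss of lysosomal enzymes such as acid alpha-glucosidase causes muscle disease. Dynamin 2 and amphiphysin 2 both act on membranes that feed this pathway.

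RefSeq promoters (mouse build GRCm38.p6, from 250 bases before to 50 bases after the start of transcription) were found for 37 of the 44 genes. None was found for Bnip3l, Map1lc3a, Becn1, Atg12, Atg16l1, Npc1 and Ctsb, whose motifs were therefore not read. The E-box core CACGTG stood in the promoter of 12 of these 37 (32.4%), and in 8.09% of the 27025 genes with a promoter. The CLEAR core GTCACGTG, which contains the E-box core, stood in 8 of 37 (21.6%) against 2.55% of all genes. These were Atg14, Atg3, Atg7, Lamp1, Mcoln1, Ctsa, Ctsd and Gla, while Bnip3, Atg5, Ctsl and Gaa held the E-box core alone. The FoxO motif GTAAACA stood in none of the 37 and in 4.05% of all genes. Both strands were read, and a match describes letters and not a bound site.

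The 7 genes with a match wholly within the 120 bases before the start are shown, since they include both genes that changed between groups and genes that did not. Each line runs 5′ to 3′ on the gene's strand up to the base before the start, with CACGTG, or the 8 letters of the CLEAR core or its reverse complement, in capitals.
Bnip3 (chr7:138909507-138909626, minus strand): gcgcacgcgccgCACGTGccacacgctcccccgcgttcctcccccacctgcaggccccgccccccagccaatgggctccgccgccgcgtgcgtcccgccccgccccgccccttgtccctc
Atg3 (chr16:45158709-45158828, plus strand): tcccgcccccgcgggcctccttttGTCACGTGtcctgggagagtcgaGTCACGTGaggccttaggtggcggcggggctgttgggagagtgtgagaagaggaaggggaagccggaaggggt
Atg5 (chr10:44268219-44268338, plus strand): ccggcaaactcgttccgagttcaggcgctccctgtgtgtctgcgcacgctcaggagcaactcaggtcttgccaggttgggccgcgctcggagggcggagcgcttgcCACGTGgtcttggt
Lamp1 (chr8:13159041-13159160, plus strand): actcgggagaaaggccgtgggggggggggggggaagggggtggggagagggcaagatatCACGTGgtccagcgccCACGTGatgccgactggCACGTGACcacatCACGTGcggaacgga
Mcoln1 (chr8:3500399-3500518, plus strand): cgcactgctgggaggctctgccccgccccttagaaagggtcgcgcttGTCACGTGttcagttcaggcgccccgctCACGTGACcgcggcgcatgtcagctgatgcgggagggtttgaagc
Ctsa (chr2:164833653-164833772, plus strand): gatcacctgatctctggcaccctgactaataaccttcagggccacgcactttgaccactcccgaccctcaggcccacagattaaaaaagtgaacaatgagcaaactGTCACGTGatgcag
Ctsd (chr7:142387828-142387947, minus strand): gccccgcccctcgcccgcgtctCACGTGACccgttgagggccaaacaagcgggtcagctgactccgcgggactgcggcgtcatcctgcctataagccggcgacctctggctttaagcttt

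Lamp1 held 4 E-box cores in this stretch, Atg3 and Mcoln1 held 2 CLEAR cores each, and Bnip3 and Atg5 held 1 E-box core each. Of the 7, Bnip3, Atg3, Atg5 and Ctsa passed the test described below in at least 1 comparison and Lamp1, Mcoln1 and Ctsd passed it in none. Atg5 and Ctsa were higher where they passed, and Bnip3 and Atg3 lower.

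Depth ran from 15586333 to 109710886 reads on genes per mouse in the Dnm2 cohort and from 24671835 to 35136327 in the Bin1 cohort. All 12 muscle fiber markers were detected, with a summed level of 112597 to 244891 CPM per mouse, which fits the labelled tissue. Xist exceeded the Y-linked Ddx3y in all 12 mice of the Bin1 cohort and in all 4 Dnm2 S619L/+ tamoxifen mice, but in 2 of 4 mice in each of the other 3 groups of the Dnm2 cohort. Comparisons with the Dnm2 S619L/+ tamoxifen group were therefore also fitted with sex as a term. In WT tamoxifen muscle 7 of 8 osteoclast markers, 6 of 8 osteoblast and osteocyte markers, 9 of 10 macrophage markers and 5 of 6 fibroblast markers rose against WT placebo. The summed osteoclast level was 7.27 to 11.95 CPM in WT placebo, 264 to 1534 CPM in WT tamoxifen, 17.5 to 20.6 CPM in Dnm2 S619L/+ placebo and 24.7 to 728 CPM in Dnm2 S619L/+ tamoxifen mice. In the Bin1 cohort it was 8.04 to 9.95, 13.6 to 35.00 and 6.18 to 183 CPM in WT placebo, Bin1 mck-/- placebo and Bin1 mck-/- tamoxifen, with mouse 2 of the last group at 183 CPM. The summed osteoblast and osteocyte level was 29.7 to 57.00 CPM in WT placebo and 296 to 926 CPM in WT tamoxifen mice, and the summed fibroblast level 931 to 1259 and 9127 to 17793 CPM. In bulk muscle, more cells of a type and more RNA per cell cannot be told apart.

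Per kilobase of exon, the most abundant of the 44 RNAs in WT placebo muscle of the Dnm2 cohort was Psap, the precursor of the saposins that activate lysosomal lipid hydrolases, at 276 ± 15.3 CPM per kb (SD, n = 4). Lamp1, an abundant glycoprotein of the lysosomal membrane, followed at 192 ± 5.77 and the cargo receptor Sqstm1 at 141 ± 9.67 CPM per kb. Ctsd, the main aspartic protease of lysosomes, reached 133 ± 5.68 and Map1lc3a 114 ± 7.05 CPM per kb. The ranges of Sqstm1 and Ctsd overlapped, and the others in this order did not. At the other end lay Gla, which encodes alpha-galactosidase A, at 1.11 ± 0.203 CPM per kb, below Tfe3 at 1.35 ± 0.187 and Atg7, the E1-like enzyme of ATG8 conjugation, at 1.43 ± 0.0956 CPM per kb, with overlapping ranges. The WT mice of the Bin1 cohort had the same first gene and the same last gene, with Psap at 313 ± 19.7 and Gla at 0.995 ± 0.192 CPM per kb.

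Between Dnm2 S619L/+ and WT mice on placebo, 13 of the 44 genes passed the test (edgeR's quasi-likelihood test with Benjamini-Hochberg adjustment over all genes tested, adjusted p under 0.05), 7 higher and 6 lower in the mutant. Below, called and passed refer to this test on all mice unless another tool is named. Of all genes tested 21.9% passed, 12.1% higher and 9.81% lower. The median log2 fold change of the 44 was -0.02, beside 0.02 over all genes. The groups did not overlap for 17 of the 44, against 24.9% of all genes. Higher were the ATG8 genes Map1lc3a and Gabarap, the conjugation gene Atg5, the transcription factors Tfeb and Tfe3, and the lysosomal enzymes Ctsz and Hexa. Lower were the receptor Optn, Ulk2, Atg2a, Atg3, Rab7 and Golga2.

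In WT mice, tamoxifen against placebo gave 8 of 44, 6 higher and 2 lower, with 27.7% of all genes passing, 15.8% higher and 11.9% lower. The higher genes were Tfe3, Lamp2, Ctsa, Ctsb, Ctsz and Hexa, of which all but Tfe3 encode lysosomal proteins, and the lower ones Bnip3 and Wipi1. The median of the 44 was -0.11 beside -0.04 over all genes, and 10 of 44 did not overlap between groups against 31.4% of all genes. In Dnm2 S619L/+ mice, tamoxifen against placebo gave 1 of 44, Atg4a, with 8.27% of all genes passing. At an unadjusted p under 0.05 there were 7 of 44 in this comparison, beside 25.4% of all genes, and their median was -0.08 beside -0.03.

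Dnm2 S619L/+ mice on tamoxifen differed from WT placebo mice in 12 of 44 genes, 6 higher and 6 lower, where 28.9% of all genes passed, 15.8% higher and 13.1% lower. The median of the 44 was -0.13 beside 0.01, and 15 of 44 did not overlap against 26.1% of all genes. Higher were Atg5, Tfe3, Lamp2, Ctsb, Ctsz and Hexa, and lower were Optn, Bnip3, Ulk2, Atg3, Rab7 and Golga2. The 3 comparisons with WT placebo share the same 4 control mice. No member passed the test of the difference between the tamoxifen effects in Dnm2 S619L/+ and WT mice with edgeR, while 0.259% of all genes did. At an unadjusted p under 0.05 there were 8 of 44 beside 13.5% of all genes, and DESeq2 called 1, Hexa.

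The Bin1 cohort gave 1 call of 44 in each comparison. Gabarapl1 was higher in Bin1 mck-/- than in WT mice on placebo, Optn was higher on tamoxifen than on placebo in Bin1 mck-/- mice, and Map1lc3a was higher in Bin1 mck-/- tamoxifen than in WT placebo mice. The shares of all genes that passed were 2.61%, 3.13% and 0.849%. At an unadjusted p under 0.05 the counts were 9, 7 and 7 of 44, beside 20.2%, 20.7% and 14.9% of all genes. The median log2 fold changes of the 44 were 0.02, 0.07 and 0.05, beside 0.01, 0.00 and 0.03 over all genes.

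In 1 fit of all 28 mice, no member passed the test of the difference between the effect of the disease allele in the Dnm2 cohort and that in the Bin1 cohort with edgeR, where 0.312% of all genes did. Here 8 of 44 had an unadjusted p under 0.05 beside 13.5% of all genes, and DESeq2 also called 0. For the difference between the tamoxifen effects in Dnm2 S619L/+ and Bin1 mck-/- mice, edgeR called no member, 1.71% of all genes passed, and 8 of 44 had an unadjusted p under 0.05 beside 24% of all genes. DESeq2 called 1, Lamp2. Without mouse 4 of the Dnm2 S619L/+ tamoxifen group, edgeR called 4 (Sqstm1, Map1lc3a, Lamp2 and Ctsb), and without mouse 2 of the Bin1 mck-/- tamoxifen group it called 3 (Map1lc3a, Atg4a and Lamp2). The effects of the cohorts are given side by side.

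Of the 44 genes, 20 passed edgeR's test in at least 1 of the 7 comparisons of a pair of groups and 24 in none. The share of the 44 called was 29.5% in Dnm2 S619L/+ placebo, 18.2% in WT tamoxifen and 27.3% in Dnm2 S619L/+ tamoxifen mice against WT placebo: above the share of all genes in the first, below it in the second and close to it in the third. With female mice only, which left 2 mice in 3 of the groups, 1 member was called in Dnm2 S619L/+ placebo (Hexa), 3 in WT tamoxifen (Bnip3, Ctsz and Hexa) and 1 in Dnm2 S619L/+ tamoxifen mice against WT placebo (Lamp2). All other calls of the Dnm2 cohort were lost in that subset, which is not repeated at each gene. The plot of fold changes by role shows where the calls fall.

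**Figure D1:**
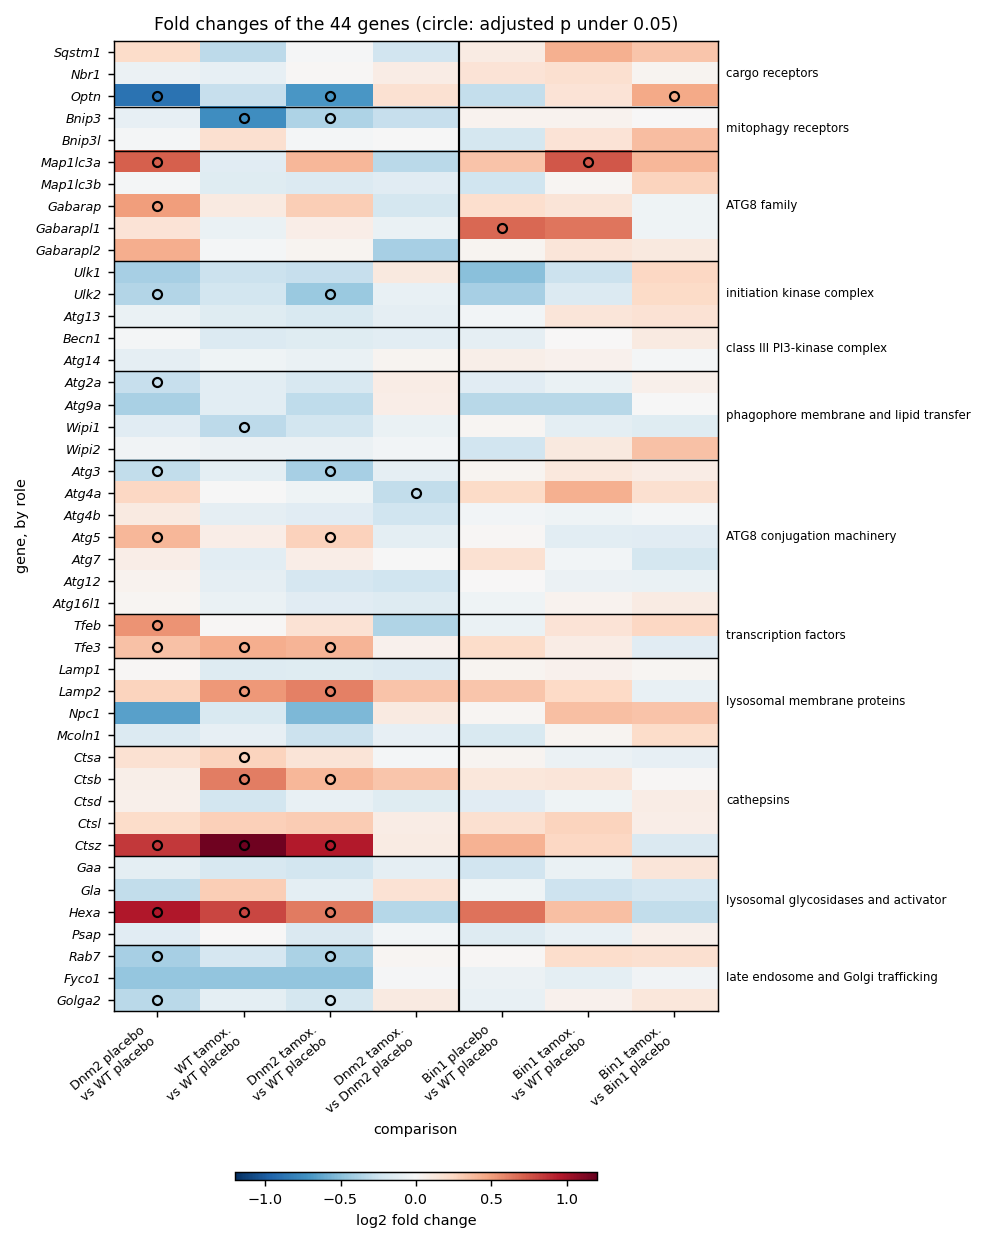
Log2 fold change (colour, scale at the bottom) of the 44 genes (rows, grouped by role) in the 7 comparisons of a pair of groups (columns, Dnm2 cohort left and Bin1 cohort right of the thick line); circles mark adjusted p under 0.05 in edgeR's quasi-likelihood test. Ctsz and Hexa are red in the 3 Dnm2 cohort columns against WT placebo, and Optn is blue in both columns that set Dnm2 S619L/+ mice against WT placebo.

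The cargo receptor called was Optn (ENSMUSG00000026672), optineurin, which links ubiquitinated cargo and mitochondria to ATG8 proteins. Its level in the 4 WT placebo mice of the Dnm2 cohort was 88.7, 123, 120.2 and 121 CPM, mouse 1 being the lowest. In Dnm2 S619L/+ placebo mice it was 66.9, 55.00, 67.5 and 55.5 CPM, all below WT, and it fell (log2 fold change -0.89 ± 0.15 (SE), adjusted p = 0.0012, n = 4 per group). On tamoxifen the mutants had 60.7, 61.6, 60.1 and 96.3 CPM, of which mouse 4 lay within the WT range and the other 3 below it (log2 fold change -0.70 ± 0.15 (SE), adjusted p = 0.004 against WT placebo). Against Dnm2 S619L/+ placebo this group did not pass the test (0.19 ± 0.15, adjusted p = 0.48).

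Optn in the Bin1 cohort was at 115, 95.7, 81.2 and 98.2 CPM in WT placebo mice and at 83.1, 78.9, 82.9 and 75.9 CPM in Bin1 mck-/- placebo mice, with 1 WT mouse inside the range of the mutants (-0.28 ± 0.11, adjusted p = 0.18). Bin1 mck-/- mice on tamoxifen had 107, 96.1, 123 and 112 CPM, all above the placebo mutants, and Optn rose in this comparison (log2 fold change 0.45 ± 0.11 (SE), adjusted p = 0.045). That call was lost with only the compared groups fitted, and without Bin1 mck-/- placebo mouse 1, 2, 3 or 4 or Bin1 mck-/- tamoxifen mouse 1, 3 or 4. Against WT placebo the Bin1 mck-/- tamoxifen group overlapped and was not called (0.17 ± 0.11, adjusted p = 0.52).

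Sqstm1 (ENSMUSG00000015837), the p62 receptor that gathers ubiquitinated proteins, passed no edgeR test. WT tamoxifen mice had 334, 351, 338 and 502 CPM, with mouse 4 far above the other 3, against 435 to 515 CPM in WT placebo mice. Bin1 mck-/- tamoxifen mice had 638, 634, 659 and 699 CPM, above all 8 other mice of the cohort, whose levels were 471 to 523 CPM in WT and 490.3 to 566 CPM in placebo mutants, but the adjusted p was 0.066 against WT and 0.088 against placebo (edgeR). DESeq2 called Sqstm1 in both comparisons. Nbr1, a receptor related to p62, stayed between 94.8 and 139 CPM over all 28 mice, the highest being mouse 4 of the Dnm2 S619L/+ tamoxifen group.

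Of the mitophagy receptors, Bnip3 (ENSMUSG00000078566), an outer mitochondrial membrane protein induced by hypoxia and FoxO, fell with tamoxifen in WT mice. Its level was 76.4, 63.5, 67.7 and 66.9 CPM in WT placebo and 35.2, 32.1, 48.5 and 48.3 CPM in WT tamoxifen mice, without overlap (log2 fold change -0.74 ± 0.13 (SE), adjusted p = 0.0011). It passed the test under each alternative, including female mice only. The Dnm2 S619L/+ mice had 65.1, 67.00, 63.7 and 61.4 CPM on placebo, within the WT placebo range but for mouse 4. On tamoxifen they had 51.2, 52.98, 45.1 and 63.6 CPM, which reached just into that range with mouse 4 (log2 fold change -0.37 ± 0.13 (SE), adjusted p = 0.049 against WT placebo). The second call was lost with no filter on low counts, with the study's filter or with sex as a term, and without WT placebo mouse 1, 2, 3 or 4 or Dnm2 S619L/+ tamoxifen mouse 1, 2 or 3. The 3 groups of the Bin1 cohort overlapped, with 35.9 to 68.7 CPM in WT placebo, 51.1 to 57.6 CPM in placebo mutants and 44.3 to 70.4 CPM in tamoxifen mutants. Bnip3l, its homologue known as NIX, passed no edgeR test and had log2 fold change 0.37 ± 0.11, adjusted p = 0.068 with tamoxifen in Bin1 mck-/- mice, where DESeq2 called it.

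The ATG8 family encodes the ubiquitin-like proteins attached to autophagosome membranes, with the LC3 branch and the GABARAP branch. Map1lc3a (ENSMUSG00000027602), which encodes LC3A, was at 129, 141, 141 and 125 CPM in WT placebo mice of the Dnm2 cohort and at 217, 279, 196 and 191 CPM in Dnm2 S619L/+ placebo mice. Every mutant exceeded every WT mouse (log2 fold change 0.72 ± 0.17 (SE), adjusted p = 0.0078). Tamoxifen mutants had 188, 135, 170.1 and 211 CPM, between the groups and overlapping both (0.39 ± 0.17, adjusted p = 0.09 against WT placebo). Against WT placebo edgeR did call it with sex as a term, with only the compared groups fitted, and without Dnm2 S619L/+ tamoxifen mouse 2. WT tamoxifen mice spread from 94.1 to 156 CPM, on both sides of the WT placebo range.

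Map1lc3a in the Bin1 cohort was at 198, 204, 193 and 209 CPM in WT placebo, 274, 268, 221 and 256 CPM in Bin1 mck-/- placebo and 341, 266, 269 and 469 CPM in Bin1 mck-/- tamoxifen mice. Both mutant groups lay above WT without overlap, and the tamoxifen group passed the test (log2 fold change 0.74 ± 0.16 (SE), adjusted p = 0.038). This call was lost with only the compared groups fitted, and without Bin1 mck-/- tamoxifen mouse 1 or 4 or WT placebo mouse 5, 6, 7 or 8. For the placebo mutants the values were 0.34 ± 0.16, adjusted p = 0.24.

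Gabarap (ENSMUSG00000018567), the founding member of the other branch, was at 123, 103, 101 and 124 CPM in WT placebo and at 158, 201, 131 and 151 CPM in Dnm2 S619L/+ placebo mice, without overlap (log2 fold change 0.50 ± 0.12 (SE), adjusted p = 0.0069). On tamoxifen the mutants had 145, 133, 143 and 133 CPM, above WT but not called by edgeR (0.29 ± 0.12, adjusted p = 0.07). It was called there with DESeq2, with the study's filter and with only the compared groups fitted. Gabarapl1 (ENSMUSG00000030161), a relative induced in starved muscle, was the ATG8 gene called in Bin1 mck-/- placebo mice, at 63.03, 51.4, 44.5 and 67.3 CPM against 35.1, 40.7, 32.9 and 31.4 CPM in WT (log2 fold change 0.69 ± 0.16 (SE), adjusted p = 0.039). Its call was lost without Bin1 mck-/- placebo mouse 1, 2 or 4 or WT placebo mouse 5, 6, 7 or 8. The tamoxifen mutants of that cohort had 52.9, 57.4, 39.2 and 68.5 CPM, with mouse 3 inside the WT range (0.64 ± 0.16, adjusted p = 0.09 against WT). Gabarapl1 in the Dnm2 cohort was at 44.5 to 52.5 CPM in WT placebo and 45.2 to 61.5 CPM in mutant placebo mice (0.16 ± 0.15, adjusted p = 0.47). The difference between these disease effects was -0.54 ± 0.23, adjusted p = 0.30. Gabarapl2, which encodes GATE-16, had log2 fold change 0.43 ± 0.16, adjusted p = 0.071 in Dnm2 S619L/+ placebo mice, and Map1lc3b, which encodes LC3B, the form most used to count autophagosomes, had -0.02 ± 0.13, adjusted p = 0.93.

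**Figure D2:**
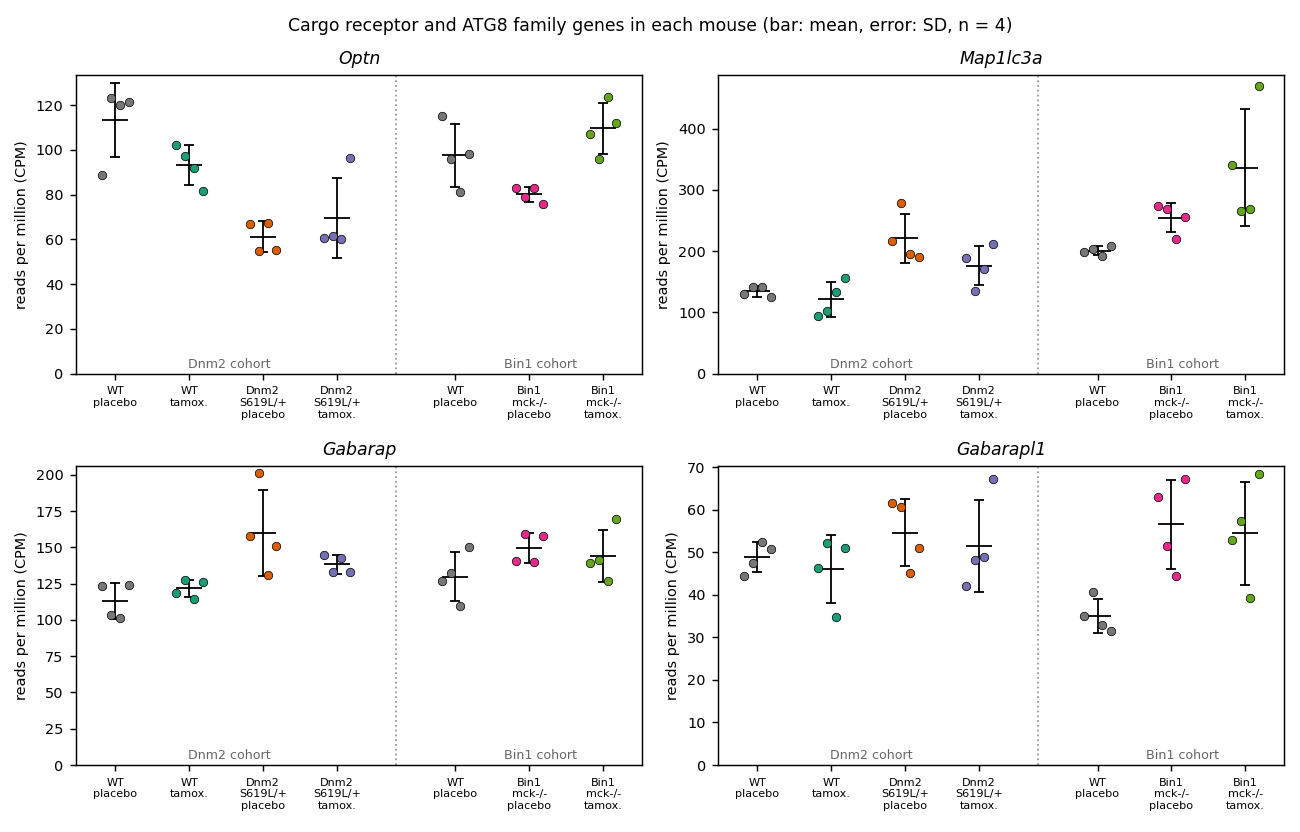
Level in CPM (vertical axis) of Optn, Map1lc3a, Gabarap and Gabarapl1 in each mouse (points) of the 7 groups (horizontal axis, Dnm2 cohort left and Bin1 cohort right of the dotted line), with the mean (bar) and SD (error bar) of 4 mice. The Dnm2 S619L/+ placebo points lie below WT for Optn and above WT for Map1lc3a and Gabarap, and the Bin1 mck-/- placebo points lie above WT for Gabarapl1.

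Of the initiation complex, Ulk2 fell in the Dnm2 mutants. Ulk2 (ENSMUSG00000004798), a kinase that starts autophagy beside ULK1, was at 133, 151, 143 and 151 CPM in WT placebo, 124, 98.1, 112 and 119.5 CPM in Dnm2 S619L/+ placebo and 107, 105, 97.5 and 117 CPM in Dnm2 S619L/+ tamoxifen mice. Neither mutant group overlapped WT, and Ulk2 fell in both (log2 fold change -0.35 ± 0.11, adjusted p = 0.029 on placebo and -0.44 ± 0.11, adjusted p = 0.0068 on tamoxifen). The placebo call was lost with no filter on low counts, and without WT placebo mouse 2, 3 or 4 or Dnm2 S619L/+ placebo mouse 2. In Bin1 mck-/- placebo mice Ulk2 was at 96.3, 94.7, 95.4 and 82.2 CPM, with mouse 4 the lowest, against 111, 135, 119 and 121 CPM in WT, also without overlap but not called (-0.40 ± 0.15, adjusted p = 0.16). Ulk1, the main initiating kinase, was not called in any comparison, with -0.40 ± 0.14, adjusted p = 0.054 in Dnm2 S619L/+ and -0.50 ± 0.15, adjusted p = 0.081 in Bin1 mck-/- placebo mice. DESeq2 called Ulk1 in both of these comparisons. In the first, edgeR called it with RLE size factors, with only the compared groups fitted, with sex as a term, and without Dnm2 S619L/+ placebo mouse 1 or 3. In the second, edgeR called it with no filter on low counts and with only the compared groups fitted. Atg13, a scaffold of the same complex, had -0.08 ± 0.11, adjusted p = 0.64 in Dnm2 S619L/+ placebo mice.

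The class III PI3-kinase complex marks the growing membrane with a lipid. Becn1, its Beclin 1 subunit, lay between 56.9 and 79.2 CPM over all 28 mice, and Atg14, which directs the complex to autophagy, between 7.79 and 13.2 CPM. Neither passed edgeR's test, and DESeq2 called Becn1 in WT tamoxifen and in Dnm2 S619L/+ tamoxifen mice against WT placebo (-0.17 ± 0.07, adjusted p = 0.079 and -0.15 ± 0.07, adjusted p = 0.11 in edgeR), where the groups did not overlap. Among the genes that supply the phagophore with lipid, Atg2a (ENSMUSG00000024773), a lipid transfer protein, fell in Dnm2 S619L/+ placebo mice, with 37.98, 35.5, 32.5 and 31.3 CPM against 42.5, 42.2, 39.8 and 42.04 CPM in WT (log2 fold change -0.28 ± 0.10 (SE), adjusted p = 0.046). WT mouse 3 lay apart from the other 3 but still above all mutants. The call was lost with no filter on low counts, and without WT placebo mouse 1, 2, 3 or 4 or Dnm2 S619L/+ placebo mouse 2, 3 or 4.

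Wipi1 (ENSMUSG00000041895), which reads the PI3-phosphate mark, fell with tamoxifen in WT mice, from 96.8, 110.1, 99.9 and 108 CPM on placebo to 85.2, 84.1, 79.3 and 84.7 CPM on tamoxifen, without overlap (log2 fold change -0.31 ± 0.08 (SE), adjusted p = 0.0088). In the same comparison 3 of the 12 muscle fiber markers fell and all 12 had a negative fold change, with sums of 167066 to 199557 CPM in WT placebo and 131015 to 154221 CPM in WT tamoxifen mice, and their part in the falls of Wipi1 and Bnip3 was not tested. Its paralogue Wipi2 was called by DESeq2 but not by edgeR with tamoxifen in Bin1 mck-/- mice (0.35 ± 0.10, adjusted p = 0.072), where edgeR called it without Bin1 mck-/- tamoxifen mouse 1. In this gene Dnm2 S619L/+ placebo mouse 2 stood apart in a group at 40.7, 50.9, 39.7 and 38.7 CPM. Atg9a, a scramblase that travels in vesicles to the phagophore, had -0.39 ± 0.16, adjusted p = 0.095 in Dnm2 S619L/+ and -0.33 ± 0.19, adjusted p = 0.34 in Bin1 mck-/- placebo mice. Of the 4 genes with this role, edgeR called none higher in any of the 7 comparisons.

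Genes of the conjugation machinery were called in both directions. Atg5 (ENSMUSG00000038160), part of the E3-like complex that attaches ATG8 proteins to lipid, was at 12.7, 14.1, 14.5 and 15.2 CPM in WT placebo, 17.1, 17.9, 18.1 and 21.2 CPM in Dnm2 S619L/+ placebo and 16.5, 17.7, 16.9 and 17.3 CPM in Dnm2 S619L/+ tamoxifen mice. Both mutant groups lay above WT without overlap and Atg5 rose in both (log2 fold change 0.39 ± 0.10, adjusted p = 0.01 on placebo and 0.28 ± 0.10, adjusted p = 0.041 on tamoxifen). The tamoxifen call was lost with no filter on low counts, and without WT placebo mouse 1, 2 or 3 or Dnm2 S619L/+ tamoxifen mouse 1, 2, 3 or 4. Atg3 (ENSMUSG00000022663), the E2-like enzyme of the same reaction, went the other way. Its levels were 32.7, 37.1, 34.5 and 32.1 CPM in WT placebo, 27.97, 30.8, 25.5 and 26.6 CPM in mutant placebo and 26.6, 24.7, 26.3 and 25.6 CPM in mutant tamoxifen mice, and neither mutant group overlapped WT.

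Atg3 fell by 0.30 ± 0.10 (log2, SE) in the placebo mutants, adjusted p = 0.049, and by 0.40 ± 0.10 in the tamoxifen mutants, adjusted p = 0.0094. The first call was lost with no filter on low counts or with the study's filter, and without WT placebo mouse 1, 2, 3 or 4 or Dnm2 S619L/+ placebo mouse 1, 3 or 4. Neither gene was called in the Bin1 cohort, with Atg5 at 0.02 ± 0.13, adjusted p = 0.96 and Atg3 at 0.03 ± 0.11, adjusted p = 0.90 in placebo mutants against WT. Atg4a (ENSMUSG00000079418), a protease that trims and recycles ATG8 proteins, was the gene called between Dnm2 S619L/+ mice on tamoxifen and on placebo. It was at 14.4, 16.5, 15.1 and 15.9 CPM on placebo and 12.6, 11.96, 12.4 and 13.4 CPM on tamoxifen, without overlap, beside 12.7, 14.4, 13.5 and 11.7 CPM in WT placebo mice (log2 fold change -0.30 ± 0.09 (SE), adjusted p = 0.047). This call was lost with RLE size factors, with no filter on low counts, with the study's filter, with only the compared groups fitted or with sex as a term, and without Dnm2 S619L/+ placebo mouse 1, 2, 3 or 4 or Dnm2 S619L/+ tamoxifen mouse 1, 2 or 3. Its paralogue Atg4b had -0.24 ± 0.08, adjusted p = 0.061 and Atg12, the ubiquitin-like partner of Atg5, -0.24 ± 0.08, adjusted p = 0.068 in the same comparison. Atg4b had a mouse apart from its group in WT placebo (mouse 4 of 28.2, 28.3, 27.7 and 23.97 CPM) and in Dnm2 S619L/+ tamoxifen (mouse 3 of 24.3, 24.1, 25.8 and 24.3 CPM), and Atg12 in Bin1 mck-/- placebo (mouse 1 of 23.7, 29.4, 29.7 and 29.9 CPM). Atg7 and Atg16l1, which joins the Atg5 and Atg12 pair, passed no test.

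Both transcription factors that drive lysosomal genes rose in Dnm2 S619L/+ placebo mice. Tfeb (ENSMUSG00000023990) was at 59.3, 50.6, 46.3 and 59.95 CPM in WT placebo and 80.7, 89.99, 69.9 and 73.8 CPM in mutant placebo mice, without overlap (log2 fold change 0.54 ± 0.18 (SE), adjusted p = 0.044). In WT tamoxifen mice it spread from 40.01 to 78.7 CPM and in mutant tamoxifen mice from 52.5 to 72.7 CPM, overlapping WT placebo in both. Its call was lost with no filter on low counts, and without WT placebo mouse 1, 2, 3 or 4 or Dnm2 S619L/+ placebo mouse 1, 2 or 4. Tfeb in the Bin1 cohort was at 90.9 to 114 CPM in WT placebo, 79.5 to 105 CPM in placebo mutants and 96.6 to 128 CPM in tamoxifen mutants. The difference between the disease effects of the cohorts was 0.61 ± 0.22, adjusted p = 0.21.

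Tfe3 (ENSMUSG00000000134) was at 13.3, 12.3, 10.1 and 14.1 CPM in WT placebo mice of the Dnm2 cohort. All 3 other groups of that cohort lay above this, with 17.6, 18.7, 14.4 and 17.2 CPM in WT tamoxifen, 15.5, 15.8, 15.9 and 16.98 CPM in mutant placebo and 17.7, 18.1, 16.3 and 14.5 CPM in mutant tamoxifen mice, and Tfe3 rose in each. The log2 fold changes against WT placebo were 0.44 ± 0.11, adjusted p = 0.01, 0.36 ± 0.11, adjusted p = 0.036 and 0.41 ± 0.11, adjusted p = 0.014. The second of these calls was lost with no filter on low counts or with only the compared groups fitted, and without WT placebo mouse 2 or 3 or Dnm2 S619L/+ placebo mouse 1, 2, 3 or 4. In Bin1 mck-/- placebo mice the value was 0.22 ± 0.13, adjusted p = 0.34.

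**Figure D3:**
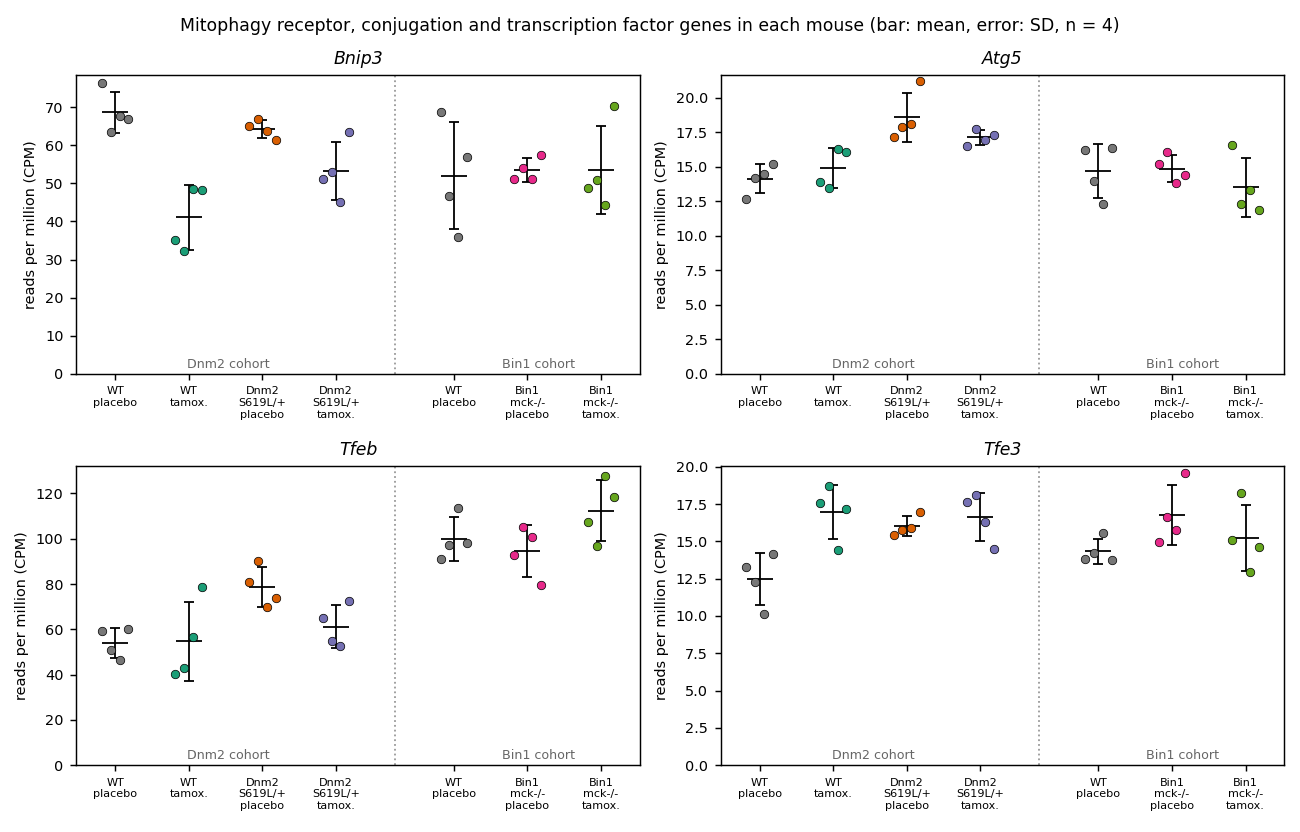
Level in CPM (vertical axis) of Bnip3, Atg5, Tfeb and Tfe3 in each mouse (points) of the 7 groups (horizontal axis, Dnm2 cohort left and Bin1 cohort right of the dotted line), with the mean (bar) and SD (error bar) of 4 mice. WT tamoxifen points lie below WT placebo for Bnip3, Dnm2 S619L/+ placebo points lie above WT placebo for Atg5 and Tfeb, and the 3 other Dnm2 cohort groups lie above WT placebo for Tfe3.

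Of the lysosomal membrane proteins, Lamp2 (ENSMUSG00000016534), which is needed for autophagosomes to fuse with lysosomes and is lost in Danon disease of heart and muscle, rose with tamoxifen. Its level was 94.8, 91.1, 87.9 and 109 CPM in WT placebo and 149, 127, 142 and 133 CPM in WT tamoxifen mice, without overlap (log2 fold change 0.52 ± 0.11 (SE), adjusted p = 0.0027). Dnm2 S619L/+ mice had 128, 106, 98.05 and 129 CPM on placebo and 138, 153, 159.7 and 133 CPM on tamoxifen. The tamoxifen mutants lay above all WT placebo mice (log2 fold change 0.61 ± 0.11 (SE), adjusted p = 0.0011), and above all placebo mutants as well without passing the test (0.34 ± 0.11, adjusted p = 0.062). DESeq2 did call the latter, and so did edgeR without Dnm2 S619L/+ tamoxifen mouse 4. The call of the tamoxifen mutants against WT placebo held under each alternative, including female mice only and sex as a term. Lamp2 in the Bin1 cohort was at 61.2, 56.4, 49.8 and 60.3 CPM in WT placebo, 69.6, 70.4, 63.9 and 82.2 CPM in placebo mutants and 63.1, 74.1, 61.9 and 69.2 CPM in tamoxifen mutants, with both mutant groups above WT and neither called (0.33 ± 0.11, adjusted p = 0.10 and 0.24 ± 0.11, adjusted p = 0.32).

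Lamp1, Npc1 and Mcoln1 were not called. Lamp1 had 449, 446, 446 and 511 CPM in Dnm2 S619L/+ tamoxifen mice, with mouse 4 apart from the other 3, beside 498 to 535 CPM in WT placebo. Npc1, which exports cholesterol from lysosomes, spread from 47.5 to 119 CPM among the WT placebo mice alone, and its log2 fold change in Dnm2 S619L/+ placebo mice was -0.65 ± 0.23, adjusted p = 0.054. DESeq2 called it, and so did edgeR with sex as a term and without WT placebo mouse 1 or 4. Mcoln1, a calcium channel of the lysosome, had -0.16 ± 0.11, adjusted p = 0.32.

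Of the 5 cathepsin genes, Ctsz, Ctsb and Ctsa rose in at least 1 comparison, and Ctsd and Ctsl were called in none. Ctsz (ENSMUSG00000016256), cathepsin Z, a carboxypeptidase abundant in macrophages, rose in all 3 comparisons of the Dnm2 cohort with WT placebo. The WT placebo mice were tightly grouped at 29.5, 28.1, 27.9 and 31.4 CPM. WT tamoxifen mice had 67.4, 94.5, 44.4 and 56.7 CPM, Dnm2 S619L/+ placebo mice 47.00, 69.5, 36.7 and 58.1 CPM and Dnm2 S619L/+ tamoxifen mice 51.4, 63.02, 73.5 and 38.2 CPM, and every one of these 12 mice exceeded every WT placebo mouse. The log2 fold changes were 1.17 ± 0.24, adjusted p = 0.0026, 0.85 ± 0.24, adjusted p = 0.019 and 0.95 ± 0.24, adjusted p = 0.0083. The call in the placebo mutants was lost without Dnm2 S619L/+ placebo mouse 2. Ctsz in the Bin1 cohort was at 31.3, 30.7, 38.7 and 33.2 CPM in WT placebo, 43.4, 41.8, 37.2 and 56.8 CPM in placebo mutants and 39.2, 50.02, 32.3 and 37.1 CPM in tamoxifen mutants, overlapping and not called (0.42 ± 0.15, adjusted p = 0.13 and 0.24 ± 0.15, adjusted p = 0.47 against WT).

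Ctsb (ENSMUSG00000021939), cathepsin B, a cysteine protease, rose in both tamoxifen groups of the Dnm2 cohort against WT placebo. It was at 434, 379, 398 and 405 CPM in WT placebo, 611, 739, 562 and 568 CPM in WT tamoxifen and 433, 419, 429.7 and 411 CPM in Dnm2 S619L/+ placebo mice. WT tamoxifen mice did not overlap WT placebo (log2 fold change 0.62 ± 0.14 (SE), adjusted p = 0.0038). Dnm2 S619L/+ tamoxifen mice had 499, 584, 655 and 389 CPM, of which mouse 4 lay within the WT placebo range (log2 fold change 0.40 ± 0.14 (SE), adjusted p = 0.038). This second call was lost with only the compared groups fitted or with sex as a term, and without WT placebo mouse 2, 3 or 4 or Dnm2 S619L/+ tamoxifen mouse 1, 2 or 3. For the placebo mutants, which overlapped WT, the value was 0.07 ± 0.13, adjusted p = 0.76. Ctsa (ENSMUSG00000017760), cathepsin A, which protects other lysosomal enzymes, rose in WT tamoxifen mice from 86.99, 74.99, 76.8 and 86.5 CPM to 96.8, 108, 94.1 and 93.3 CPM, without overlap (log2 fold change 0.27 ± 0.10 (SE), adjusted p = 0.049), a call that was lost with RLE size factors, with no filter on low counts or without the mitochondrially encoded genes, and without WT placebo mouse 1, 2, 3 or 4 or WT tamoxifen mouse 1, 2 or 3. Ctsd was not called and had -0.22 ± 0.11, adjusted p = 0.16 with tamoxifen in WT mice. Ctsl, cathepsin L, a cysteine protease known as an atrophy gene in muscle, had 0.28 ± 0.12, adjusted p = 0.082.

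Among glycosidases and their activator, Hexa (ENSMUSG00000025232), the alpha subunit of hexosaminidase A, whose loss causes Tay-Sachs disease, rose in the same 3 comparisons as Ctsz. WT placebo mice were at 45.9, 45.5, 41.1 and 44.2 CPM. The other groups of the cohort reached 82.9, 107, 50.5 and 68.03 CPM in WT tamoxifen, 84.4, 119, 58.98 and 82.2 CPM in mutant placebo and 66.1, 73.6, 81.2 and 51.9 CPM in mutant tamoxifen mice, again each mouse above all WT placebo mice. The log2 fold changes were 0.80 ± 0.22, adjusted p = 0.014, 0.96 ± 0.22, adjusted p = 0.0066 and 0.62 ± 0.22, adjusted p = 0.043. The first call was lost without WT tamoxifen mouse 2, and the last with no filter on low counts or with sex as a term, and without WT placebo mouse 1, 2, 3 or 4 or Dnm2 S619L/+ tamoxifen mouse 1, 2 or 3.

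Hexa in the Bin1 cohort was at 42.9, 44.7, 46.5 and 43.7 CPM in WT placebo, 74.7, 71.2, 51.3 and 82.2 CPM in placebo mutants and 63.5, 63.9, 34.1 and 66.7 CPM in tamoxifen mutants. All placebo mutants exceeded WT, but the value was not called by edgeR (0.65 ± 0.19, adjusted p = 0.07) and was called by DESeq2. With only the compared groups fitted, and without Bin1 mck-/- placebo mouse 3, edgeR did call it. Mouse 3 of the tamoxifen mutants was the lowest of the cohort. The tamoxifen effect on Hexa in Dnm2 S619L/+ mice minus that in WT mice was -1.14 ± 0.31, adjusted p = 0.15, and for Ctsz it was -1.07 ± 0.33, adjusted p = 0.20. The remaining genes of the group, Gaa, which encodes acid alpha-glucosidase, Gla and Psap, passed no test, with Gaa at -0.11 ± 0.15, adjusted p = 0.63 and Psap at -0.14 ± 0.09, adjusted p = 0.30 in Dnm2 S619L/+ placebo mice.

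**Figure D4:**
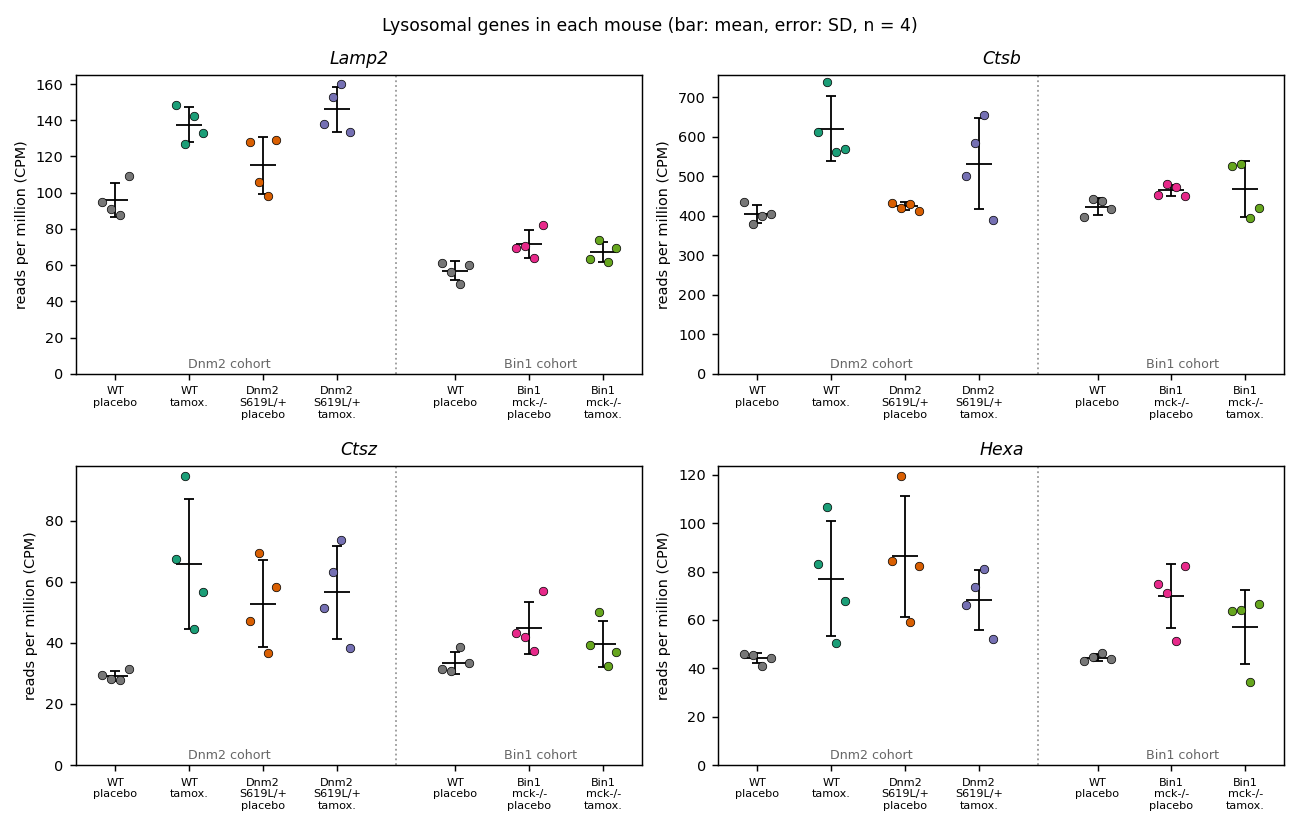
Level in CPM (vertical axis) of Lamp2, Ctsb, Ctsz and Hexa in each mouse (points) of the 7 groups (horizontal axis, Dnm2 cohort left and Bin1 cohort right of the dotted line), with the mean (bar) and SD (error bar) of 4 mice. Ctsz and Hexa are higher than WT placebo in every mouse of the 3 other Dnm2 cohort groups, and Ctsb is higher in the WT tamoxifen mice.

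Markers of macrophages and osteoclasts were read beside these enzymes. Of the 8 osteoclast markers, 0 were called higher and 1 lower in Dnm2 S619L/+ placebo mice against WT placebo, where Ctsz and Hexa rose. Called or not, 6 of the 8 had a positive fold change there, with a median log2 fold change of 0.95 beside 0.02 over all genes. The summed osteoclast level of these mutants, given above, also lay above WT placebo without overlap. On tamoxifen against placebo in Dnm2 S619L/+ mice 6 of the 8 rose, where neither Ctsz nor Hexa was called. The summed level of the 10 macrophage markers was 80.96 to 142 CPM in WT placebo, 230.2 to 443 CPM in WT tamoxifen, 124 to 490.1 CPM in Dnm2 S619L/+ placebo and 143 to 351 CPM in Dnm2 S619L/+ tamoxifen mice. It was 63.8 to 101 CPM in WT placebo, 188 to 377 CPM in placebo mutants and 71.8 to 226 CPM in tamoxifen mutants of the Bin1 cohort. None of the 10 was at 0 in a whole group. Of the 10, 5 rose in Dnm2 S619L/+ placebo, 9 in WT tamoxifen, 8 in Dnm2 S619L/+ tamoxifen and 2 in Bin1 mck-/- placebo mice, each against WT placebo. WT tamoxifen mouse 2 had the highest macrophage and osteoclast sums of its group (443 and 1534 CPM) and the highest Ctsz, Hexa and Ctsb. Dnm2 S619L/+ tamoxifen mouse 4 had the lowest sums (143 and 24.7 CPM) and the lowest Ctsz, Hexa and Ctsb of its group. Bin1 mck-/- tamoxifen mouse 3 had the lowest macrophage sum (71.8 CPM) and the lowest Hexa and Ctsz. In Dnm2 S619L/+ placebo mice the order differed, with mouse 2 highest in Ctsz and Hexa and mouse 4 highest in macrophage markers (212 against 490.1 CPM). Of 5 endothelial markers, 3 fell in Dnm2 S619L/+ placebo mice, with sums of 370.5 to 709.5 CPM in WT placebo and 178 to 471 CPM in the mutants. Of the 4 adipocyte markers tested in the Bin1 cohort, 2 rose in Bin1 mck-/- placebo mice against WT and 1 fell on tamoxifen, with sums of 0.864 to 1.87, 6.80 to 24.6 and 0.776 to 7.19 CPM in WT placebo, placebo mutants and tamoxifen mutants, and Lep at 0 in the first and the last group. The part of these cells in the levels of the 44 genes was not tested.

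**Figure D5:**
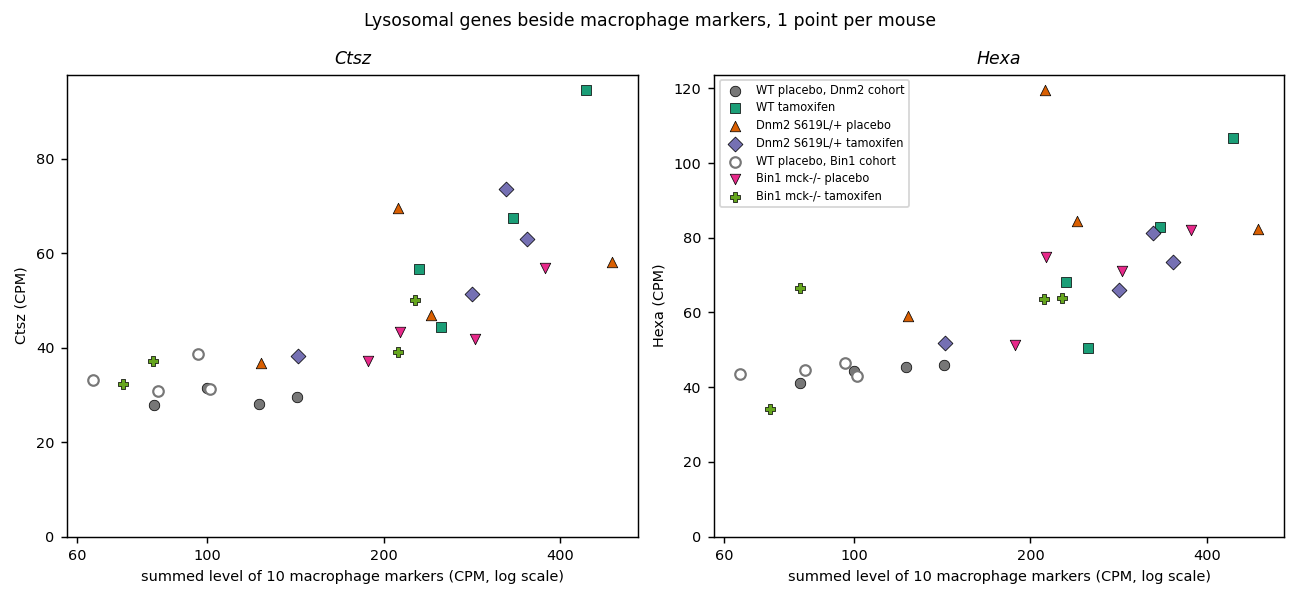
Level of Ctsz (left) and Hexa (right) in CPM against the summed CPM of 10 macrophage markers (horizontal log axis), with 1 point per mouse and 1 symbol per group. WT placebo mice of both cohorts sit at the lower left, and the WT tamoxifen mouse with the highest macrophage level of its group also has its highest Ctsz and Hexa.

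Of the 3 trafficking genes, Rab7 and Golga2 fell in the Dnm2 mutants. Rab7 (ENSMUSG00000079477), the small GTPase that matures late endosomes and brings autophagosomes to lysosomes, was at 167, 194, 196 and 179.7 CPM in WT placebo, 138, 141, 144 and 134 CPM in Dnm2 S619L/+ placebo and 144, 136, 135 and 151 CPM in Dnm2 S619L/+ tamoxifen mice. Neither mutant group overlapped WT and Rab7 fell in both (log2 fold change -0.40 ± 0.09, adjusted p = 0.0044 and -0.38 ± 0.09, adjusted p = 0.0046). Both calls held under each alternative but female mice only. In WT tamoxifen mice against WT placebo DESeq2 called Rab7 and edgeR did not. Rab7 was not called in the Bin1 cohort, with 0.02 ± 0.11, adjusted p = 0.95 in placebo mutants, and the difference between the disease effects of the cohorts was -0.43 ± 0.13, adjusted p = 0.14.

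Golga2 (ENSMUSG00000002546), the Golgi matrix protein GM130, was at 97.8, 94.1, 99.5 and 87.1 CPM in WT placebo, 79.5, 79.05, 72.7 and 71.8 CPM in placebo mutants and 82.1, 81.5, 80.96 and 82.2 CPM in tamoxifen mutants. Both mutant groups lay below all WT mice, with log2 fold changes -0.32 ± 0.07, adjusted p = 0.0067 and -0.21 ± 0.07, adjusted p = 0.041. The tamoxifen call was lost with no filter on low counts, with the study's filter, with only the compared groups fitted or with sex as a term, and without WT placebo mouse 1, 2 or 3 or Dnm2 S619L/+ tamoxifen mouse 1, 2, 3 or 4. Of the 12 muscle fiber markers, 3 fell in Dnm2 S619L/+ placebo and 7 in Dnm2 S619L/+ tamoxifen mice against WT placebo, with sums of 167066 to 199557 CPM in WT placebo, 131335 to 190102 CPM in mutant placebo and 112597 to 181925 CPM in mutant tamoxifen mice, and their part in the falls of Optn, Rab7 and Golga2 was not tested. Fyco1 (ENSMUSG00000025241), which ties Rab7 vesicles to kinesin, was at 406, 428, 429.9 and 286 CPM in WT placebo mice, where mouse 4 lay far below the other 3. Its log2 fold changes against WT placebo were -0.47 ± 0.19, adjusted p = 0.087 in mutant placebo, -0.48 ± 0.19, adjusted p = 0.071 in WT tamoxifen and -0.48 ± 0.19, adjusted p = 0.069 in mutant tamoxifen mice, none of them called by edgeR. Without WT placebo mouse 4 edgeR called Fyco1 in all 3. DESeq2 called the last 2 of these, and edgeR called the second also without WT tamoxifen mouse 3 and the third without Dnm2 S619L/+ tamoxifen mouse 4.

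Related genes outside the 44 were read in the same fits, but not under the alternatives. Their calls with the Dnm2 S619L/+ tamoxifen group, whose sex genes differed from the other groups of its cohort, were therefore not checked with sex as a term. Of 43 other lysosomal genes, 25 rose and 2 fell in WT tamoxifen mice, with a median log2 fold change of 0.61 beside -0.04 over all genes. The 3 with the smallest p were Ctsk, the collagen-cutting cathepsin of osteoclasts (5.77 ± 0.74, adjusted p = 0.00025), and the glycosaminoglycan sulfatases Galns (1.52 ± 0.24, adjusted p = 0.0005) and Arsb (2.78 ± 0.48, adjusted p = 0.00094). Ctsk is also one of the osteoclast markers whose sums are given above. In Dnm2 S619L/+ placebo mice 8 of the 43 rose and 3 fell (median 0.15), among them Lgmn, the asparaginyl protease legumain (1.05 ± 0.13, adjusted p = 6.9e-05), Laptm4a, a lysosomal membrane protein (0.38 ± 0.08), and Galns (1.16 ± 0.24). In Dnm2 S619L/+ tamoxifen mice against WT placebo 18 rose and 2 fell (median 0.39). In Bin1 mck-/- placebo mice 2 rose, Lgmn (0.92 ± 0.16, adjusted p = 0.014) and Laptm5, a lysosomal protein of blood cells (1.24 ± 0.30, adjusted p = 0.048). Of all genes, 27.7%, 21.9%, 28.9% and 2.61% passed in these comparisons, in the order given. The count in Dnm2 S619L/+ placebo mice was close to its share.

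The V-ATPase acidifies lysosomes. Of 16 subunit genes, 5 rose and 2 fell in Dnm2 S619L/+ placebo mice (median 0.32), 4 rose in WT tamoxifen mice (median 0.02) and 1 rose in Bin1 mck-/- placebo mice (median 0.01). Of all genes, 21.9%, 27.7% and 2.61% passed in these comparisons. The Dnm2 S619L/+ placebo count was above its share and the WT tamoxifen count was close to its share. All 4 calls in WT tamoxifen mice were higher, where 15.8% of all genes passed higher. Atp6ap2, an accessory subunit also known as the prorenin receptor, rose in each of the 3 (1.19 ± 0.16, 0.96 ± 0.16 and 0.89 ± 0.18, with adjusted p = 0.00017, 0.00075 and 0.024). Its tamoxifen effect in Dnm2 S619L/+ mice was lower than that in WT mice (-1.15 ± 0.23, adjusted p = 0.047), and it was the gene of these lists past the threshold in that test. This call lay near the threshold and was not read with sex as a term or with a mouse left out.

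Of 29 other genes of the autophagy machinery, 3 rose and 2 fell in Dnm2 S619L/+ placebo mice (median -0.09), and 3 fell in WT tamoxifen mice (median -0.15). Both counts were below the shares of all genes that passed, 21.9% and 27.7%. Tmem41b, a scramblase needed for autophagosome formation, rose in the placebo mutants (0.73 ± 0.13, adjusted p = 0.0014) and fell on tamoxifen (-0.57 ± 0.13 against mutant placebo, adjusted p = 0.017). Trp53inp2, an ATG8-binding regulator of muscle autophagy, fell with tamoxifen in WT mice (-0.59 ± 0.12, adjusted p = 0.0021). The kinase complex mTORC1 holds autophagy back. A list of 23 genes of mTORC1 and nutrient sensing held its parts and activators together with its inhibitors, so a median over it is not the level of the complex. Of the 23, 3 rose and 3 fell in the Dnm2 S619L/+ placebo mutants (median 0.06), and 1 rose and 6 fell in WT tamoxifen mice (median -0.25). With both directions together these counts were close to the shares of all genes that passed, 21.9% and 27.7%. By direction in WT tamoxifen mice, the 1 higher and 6 lower of 23 stood beside 15.8% of all genes higher and 11.9% lower. Prkaa1, a catalytic subunit of AMPK, rose in Dnm2 S619L/+ (1.02 ± 0.12, adjusted p = 6.6e-05) and in Bin1 mck-/- placebo mice (0.78 ± 0.15, adjusted p = 0.018), and fell on tamoxifen against placebo in both models (-0.66 ± 0.12, adjusted p = 0.0058, and -0.65 ± 0.15, adjusted p = 0.028). Mtor itself fell in Dnm2 S619L/+ placebo (-0.51 ± 0.11, adjusted p = 0.004) and in WT tamoxifen mice (-0.32 ± 0.11, adjusted p = 0.035).

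A list of 19 autophagy genes came from a co-expression module of the study, which was chosen partly on these mice, so its direction is not independent evidence. The study classed this module as pathogenic, with trait correlations opposite to those of its beneficial modules. The 19 genes lay lower, by median, in both placebo mutants, the other direction from a module that rises with worse traits. They are only a part of the module, read in fewer mice, and the difference was not tested. The list holds 3 of the 44, Golga2, Atg2a and Ulk1. In Dnm2 S619L/+ placebo mice 4 of the 19 fell and none rose, beside 21.9% of all genes called (median -0.18 beside 0.02 over all genes), with Golga2, Tpcn1, a lysosomal cation channel (-0.43 ± 0.10, adjusted p = 0.009), and Atp6v0a1, a V-ATPase subunit (-0.32 ± 0.10, adjusted p = 0.04), among them. In Bin1 mck-/- placebo mice edgeR called 0 of the 19, with 7 at an unadjusted p under 0.05 beside 20.2% of all genes (median -0.15).

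The 24 genes that edgeR called in none of the 7 comparisons were Sqstm1, Nbr1, Bnip3l, Map1lc3b, Gabarapl2, Ulk1, Atg13, Becn1, Atg14, Atg9a, Wipi2, Atg4b, Atg7, Atg12, Atg16l1, Lamp1, Npc1, Mcoln1, Ctsd, Ctsl, Gaa, Gla, Psap and Fyco1. DESeq2 called Sqstm1, Bnip3l, Ulk1, Becn1, Wipi2, Atg4b, Atg12, Npc1 and Fyco1 of these in at least 1 comparison. Their log2 fold changes ran from -0.65 (Npc1) to 0.43 (Gabarapl2) in Dnm2 S619L/+ placebo and from -0.48 (Fyco1) to 0.30 (Gla) in WT tamoxifen mice, both against WT placebo. Against WT placebo, these genes in Bin1 mck-/- placebo mice had a range of -0.50 (Ulk1) to 0.19 (Ctsl), and the range on tamoxifen against Bin1 mck-/- placebo was -0.21 (Atg7) to 0.37 (Bnip3l).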

How the data were processed

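RNA of tibialis anterior muscle was sequenced from 28 mice, and the authors deposited 1 table of raw read counts per gene for each cohort. Per the labels, libraries were poly(A)-selected, strand-specific and made from 300 ng (Dnm2 cohort, 2 minutes of fragmentation) or 350 ng of RNA (Bin1 cohort, 8 minutes). The submitters' processing notes name bcl2fastq 2.20.0.422, cutadapt 1.10, Bowtie 1.2.2, STAR 2.5.3, HTSeq 0.6.1p1 and mm39. Which tool did which step, and whether counting used strand, is not given in the sources used here. Lines that name no gene, given for the Bin1 cohort, held 22.01% to 30.78% of its reads and were left out. Gene names came from a table of Ensembl identifiers and symbols, which named 52083 of the 55416 identifiers in the Dnm2 and of the 55359 in the Bin1 cohort, and exon lengths from GENCODE M21.

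Groups were taken from the labels. Ages and strain come from the study's description of its cohorts. P-values weigh a difference between groups against the spread between these mice. Every pair of mice within a group was further apart than counting noise, so each was used as 1 replicate. Counts were tested with edgeR 4.0.16 (filterByExpr, TMM, robust quasi-likelihood test, Benjamini-Hochberg over all genes tested, adjusted p under 0.05) in R 4.3.3, all groups of a cohort in 1 fit, and all 28 mice in 1 fit for differences between cohorts. CPM are counts per 1000000 reads of TMM-scaled library size. SE is the log2 fold change divided by the square root of the F statistic. DESeq2 1.42.0, RLE size factors, filters, groups fitted, mitochondrially encoded genes, a replicate block and leaving out each mouse were alternatives. Sex as a term and female mice only were added after seeing the data, because Xist and Ddx3y differed between groups. Scripts were tested on simulated data. The genes, lists and tests were chosen with earlier results of these data known.

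Named were all members called within a cohort, at most 4 per role with values in every mouse, members with an outlying mouse, and at most 3 called genes per related list. Promoters came from RefSeq on GRCm38.p6, another build than mm39, and no gene coordinates are given on mm39.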

Additional observations from a re-analysis of the deposited data

Results flagged for a closer look

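By Dixon's test at the 95% level, 1 mouse lay apart from the other 3 of its group in 13 of 308 combinations of gene and group, where chance alone flags about 1 in 20. Mouse 4 of the Dnm2 S619L/+ tamoxifen group was the high mouse for 3 genes: Nbr1 at 139 CPM (the other 3 at 105 to 108 CPM), Optn at 96.3 CPM (the other 3 at 60.1 to 61.6 CPM) and Lamp1 at 511 CPM (the other 3 at 446 to 449 CPM). The same mouse had the lowest Ctsz, Hexa and Ctsb of its group and the lowest summed osteoclast level, 24.7 CPM against 250.2, 294 and 728 CPM in the others.

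Other high mice were Sqstm1 at 502 CPM in WT tamoxifen mouse 4 (the other 3 at 334 to 351 CPM), Wipi2 at 50.9 CPM in Dnm2 S619L/+ placebo mouse 2 (the other 3 at 38.7 to 40.7 CPM) and Atg4b at 25.8 CPM in Dnm2 S619L/+ tamoxifen mouse 3 (the other 3 at 24.1 to 24.3 CPM). Low mice were Optn at 88.7 CPM in WT placebo mouse 1 (the other 3 at 120.2 to 123 CPM), Ulk2 at 82.2 CPM in Bin1 mck-/- placebo mouse 4 (the other 3 at 94.7 to 96.3 CPM), Atg2a at 39.8 CPM in WT placebo mouse 3 (the other 3 at 42.04 to 42.5 CPM), Atg4b at 23.97 CPM in WT placebo mouse 4 (the other 3 at 27.7 to 28.3 CPM), Atg12 at 23.7 CPM in Bin1 mck-/- placebo mouse 1 (the other 3 at 29.4 to 29.9 CPM), Hexa at 34.1 CPM in Bin1 mck-/- tamoxifen mouse 3 (the other 3 at 63.5 to 66.7 CPM) and Fyco1 at 286 CPM in WT placebo mouse 4 (the other 3 at 406 to 429.9 CPM). For Optn the low WT placebo mouse still exceeded every Dnm2 S619L/+ placebo mouse, and for Atg2a likewise. In the 3 tests of a difference between effects, edgeR called none of the 44 genes.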

How the results depend on the processing

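Of 621 refits of the 37 member fold changes called in a comparison, 455 passed the threshold in the same direction, 166 did not pass it and 0 changed direction. The number of the 44 called in Dnm2 S619L/+ against WT placebo (13 as reported) was 8 with no filter on low counts. In Dnm2 S619L/+ mice on tamoxifen against placebo (1 as reported) it was 4 with DESeq2, and 0 with RLE size factors, no filter, the study's filter, only the compared groups, the replicate block or sex as a term. In Bin1 mck-/- against WT placebo (1 as reported) it was 3 with DESeq2, 2 with no filter and 5 with only the compared groups. For Bin1 mck-/- mice on tamoxifen against placebo (1 as reported) it was 4 with DESeq2, and 0 with only the compared groups or the replicate block, and for tamoxifen mutants against WT placebo (1 as reported) 3 with DESeq2, 2 with no filter and 0 with only the compared groups. DESeq2 called 1 in each test of a difference between tamoxifen effects (0 as reported). With female mice only the counts in the Dnm2 cohort were 1 (Dnm2 S619L/+ against WT placebo), 3 (tamoxifen in WT), 0 (tamoxifen in Dnm2 S619L/+) and 1 (Dnm2 S619L/+ tamoxifen against WT placebo), in fits with fewer mice. The cause of the other differences was not tested.

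Leaving out each mouse in turn gave 8 to 13 calls in Dnm2 S619L/+ against WT placebo, the lowest without WT placebo mouse 3 or Dnm2 S619L/+ placebo mouse 2, and 6 to 8 for tamoxifen in WT mice. It gave 0 to 4 for tamoxifen in Dnm2 S619L/+ mice and 7 to 14 for Dnm2 S619L/+ tamoxifen against WT placebo, in both the highest without Dnm2 S619L/+ tamoxifen mouse 4. The other ranges were 0 to 1 for the difference of the tamoxifen effects between Dnm2 S619L/+ and WT mice (1 without Dnm2 S619L/+ placebo mouse 3), 0 to 2, 0 to 1 and 0 to 2 in the 3 Bin1 comparisons in the order above, 0 to 0 for the disease effects between cohorts, and 0 to 4 for the tamoxifen effects between cohorts.

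Mice with the same number in the labels are not said to be related, and the correlation of their deviations exceeded 0.1 in 9 of 24 pairs in the Dnm2 cohort and in 1 of 4 in the Bin1 cohort. The replicate block moved the 13, 8 and 12 calls of the comparisons with WT placebo in the Dnm2 cohort to 12, 7 and 9. It ended the calls of Atg2a in Dnm2 S619L/+ placebo and Ctsa in WT tamoxifen mice, of Bnip3, Ctsb and Golga2 in Dnm2 S619L/+ tamoxifen mice against WT placebo, and of Atg4a and Optn with tamoxifen in Dnm2 S619L/+ and Bin1 mck-/- mice. At the depth of these libraries all 44 genes passed the filter, and the number of mice limits the precision.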
